A study of Mus musculus with 35 samples.

Results

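*Pramel6*, *Pramel7* and *Pramef12* are 3 genes of the Prame family of mouse embryonic stem cells (ESCs), and they were taken by symbol as 3 of the 26127 rows of an RNA-seq expression table. The libraries held total RNA depleted of ribosomal RNA. The labels gave 17 control libraries, called WT here, and 17 *Dnmt1* KO libraries from days 0, 1, 3, 6, 9, 11, 17 and 25. There were 2 per genotype and day and 3 at day 1, and 1 library of *Dicer* KO ESCs. The labels do not say whether control cells received the drug 4OHT, which induced the deletion. By the study's methods the cells were ESCs with both *Dnmt1* alleles flanked by loxP sites (strain C57BL/6, although the labels name E14), grown in serum with LIF, with or without feeders, and 4OHT switched on the Cre recombinase that deletes *Dnmt1*. The *Dicer* KO cells came from the same loxP line after constitutive CRISPR/Cas9 deletion and single-cell cloning, so they carry the *Dnmt1* loxP alleles too, and no labelled day or matched control belongs to them. The design text calls the replicates biological, but nothing says how the cultures were separated, so p-values measure only the spread between these libraries.

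PRAME proteins are built of leucine-rich repeats, and the family has many copies in mouse, most of them in a cluster on chromosome 4. *Pramel6* and *Pramel7* are known from the inner cell mass and from naive ESCs, where Pramel7 lies downstream of LIF and STAT3. Pramel7 guides a CUL2 ubiquitin ligase to Uhrf1, the protein that brings the maintenance methyltransferase Dnmt1 to newly copied DNA, and so lowers DNA methylation. *Pramef12* (named *Pramel13* in RefSeq) is known from the male germ line.

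*Pramel7* and *Pramel6* are neighbours on chromosome 2 of build NCBIM37. *Pramel7* (ENSMUSG00000025839.3) spans 87329244 to 87337250 on the minus strand and *Pramel6* (ENSMUSG00000025838.6) spans 87346722 to 87351029 on the plus strand, 9472 bases away, and the genes are divergent, with olfactory receptor genes on both sides. *Pramef12* (ENSMUSG00000028591.5) lies from 143981577 to 143998367 on the minus strand of chromosome 4, and *D530049N12Rik* lies on the opposite strand inside it. The 250 bases before each RefSeq start site are shown because the members were higher after deletion of a CpG methyltransferase. They run 5′ to 3′ on the gene's strand, with each CpG in capitals. The RefSeq entries are of GRCm38.p6, and the same bases were found once in NCBIM37 at the coordinates given.

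Pramel6, chr2:87346472-87346721, plus strand: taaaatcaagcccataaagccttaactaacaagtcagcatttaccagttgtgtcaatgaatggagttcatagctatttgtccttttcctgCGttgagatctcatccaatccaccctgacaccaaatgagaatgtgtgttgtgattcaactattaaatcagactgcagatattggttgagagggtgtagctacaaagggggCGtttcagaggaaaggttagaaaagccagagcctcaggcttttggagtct

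Pramel7, chr2:87332576-87332825, minus strand: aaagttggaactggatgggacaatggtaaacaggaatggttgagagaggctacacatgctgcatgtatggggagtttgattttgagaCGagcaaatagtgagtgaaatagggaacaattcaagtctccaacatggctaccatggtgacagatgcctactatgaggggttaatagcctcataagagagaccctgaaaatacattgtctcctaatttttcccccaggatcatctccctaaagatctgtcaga

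Pramef12, chr4:143998368-143998617, minus strand: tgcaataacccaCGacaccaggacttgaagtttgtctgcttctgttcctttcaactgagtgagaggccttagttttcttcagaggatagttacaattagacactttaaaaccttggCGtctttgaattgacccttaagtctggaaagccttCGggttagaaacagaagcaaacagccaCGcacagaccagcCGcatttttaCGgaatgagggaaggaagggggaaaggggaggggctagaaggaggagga

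*Pramel6* had 2 CpGs in this window, *Pramel7* had 1 and *Pramef12* had 6. Among the 27018 RefSeq windows of this length the median was 6 CpGs, 29.6% had 2 or fewer, 19.4% had 1 or fewer and 53.5% had 6 or fewer. The windows were also searched on both strands for 4 motifs, and none was found in any of the 3. TTCNNNGAA, the core that STAT factors recognise, was present in 7.18% of all windows. The E2F-type word GCGGGA was present in 16.9%. The E-box CACGTG was present in 6.05%. The octamer ATGCAAAT was present in 1.61%. The *Pramel7* row of the table reaches 4675 bases further upstream than the RefSeq start.

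Levels are RPKM (a read count divided by exon length in kilobases and by the mega-reads of its library) and can be compared between genes because they are per length. Total depth ranged from 24.3 to 72.1 mega-reads, and reads inside exons from 5.21 to 18.03 mega-reads. The share of reads in exons formed 2 sets in the data, between 20.7% and 22.4% in 20 libraries (days 0, 3, 6 and 9 and the first and second day 1 pairs) and between 44.8% and 49.99% in 15 libraries (days 11, 17 and 25, the third day 1 pair and *Dicer* KO), so levels of earlier and later days are not on one scale. At day 0 *Dnmt1* RNA was alike in the libraries labelled KO (18.46 and 18.67 RPKM) and WT (18.25 and 18.39). In the first and second day 1 pairs it was already low in KO (2.86 and 3.04 RPKM against 17.94 and 18.08 in WT). After day 1 *Dnmt1* RNA followed the labels except at day 6. At days 3, 9, 11, 17 and 25 it lay between 2.58 and 4.40 RPKM in KO and between 14.1 and 34.8 in WT, while at day 6 the libraries labelled WT had 3.22 and 3.41 RPKM and those labelled KO had 20.2 and 20.4. Day 6 is therefore reported as labelled and kept out of every mean over days. Defining ESC markers were present throughout, with the 7 listed genes summing to between 638 and 1870 RPKM.

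*Pramel6* was almost silent in WT cells and gained reads in the KO. Outside day 6 it had no read in 11 of the 14 WT libraries of the first and second replicates, and 5 reads in all in the other 3. At days 0 and 1 it was also at 0 in the 4 KO libraries, where 3 reads would have been between 0.0229 and 0.0407 RPKM. At day 3 the KO libraries had 0.0259 RPKM (2 reads) and 0 RPKM, against 0 in both WT libraries. At day 9 they had 0.0668 and 0.0549 RPKM (6 and 4 reads) against 0.00679 RPKM (1 read) and 0 in WT.

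The larger differences of *Pramel6* came later. At day 11 the KO libraries had 0.290 and 0.111 RPKM (19 and 7 reads) and both WT libraries had none. At day 17 they had 0.419 and 0.534 RPKM (27 and 34 reads) against 0.0162 and 0.0483 RPKM (1 and 3 reads). At day 25 they had 0.194 and 0.235 RPKM (12 and 15 reads) and both WT libraries again had none. Over these days the 6 KO libraries held 114 reads and the 6 WT libraries 4.

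*Pramel7* had a low level in every WT library and rose from it in the KO. Outside day 6 its WT level lay between 0.0193 and 0.0549 RPKM up to day 9, between 1 and 7 reads a library. At day 0 the KO libraries had 0.0115 and 0.00747 RPKM against 0.0295 and 0.0300 in WT, and at day 1 they had 0.0130 and 0.0529 against 0.0549 and 0.0421. At day 3 the KO libraries had 0.114 and 0.0376 RPKM (9 and 2 reads) against 0.0391 and 0.0381 in WT, so the groups overlapped. At day 9 they had 0.185 and 0.148 RPKM (17 and 11 reads) against 0.0265 and 0.0193 RPKM (4 and 1 reads).

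At day 11 *Pramel7* had 0.611 and 0.263 RPKM in KO (41 and 17 reads) and 0.0432 and 0.183 RPKM in WT (3 and 15 reads). Both genotypes spread widely on this day, and the second WT library had the highest WT level of the series. At day 17 the KO libraries had 0.560 and 0.598 RPKM (37 and 39 reads) and the WT libraries 0.0475 and 0.0314 RPKM (3 and 2 reads). At day 25 the KO libraries had 0.126 and 0.321 RPKM (8 and 21 reads) and the WT libraries 0.0936 and 0.0864 RPKM (6 and 5 reads), and the first KO library lay close to WT.

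*Pramef12* was expressed in every library and was the most abundant of the 3 members throughout. At day 0 it had 2.597 and 2.547 RPKM in WT and 2.98 and 2.82 in KO, and at day 1 2.53 and 2.49 in WT and 2.73 and 2.77 in KO. At day 3 it had 2.28 and 2.45 RPKM in WT and 3.75 and 3.89 in KO, and at day 9 2.52 and 2.13 in WT and 3.61 and 3.62 in KO. Each group of 2 stayed close together, and the KO libraries of days 3 and 9 were above every WT library of days 0, 1, 3 and 9 of the first and second replicates.

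At day 11 *Pramef12* had 7.38 and 6.57 RPKM in WT and 13.99 and 11.99 in KO, and at day 17 7.74 and 7.71 in WT and 13.4 in both KO libraries. At day 25 it had 3.02 and 1.93 RPKM in WT and 5.59 and 5.25 in KO. The drop at day 25 was seen in both genotypes, and the KO libraries were the higher ones at each of these days.

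**Figure D1:**
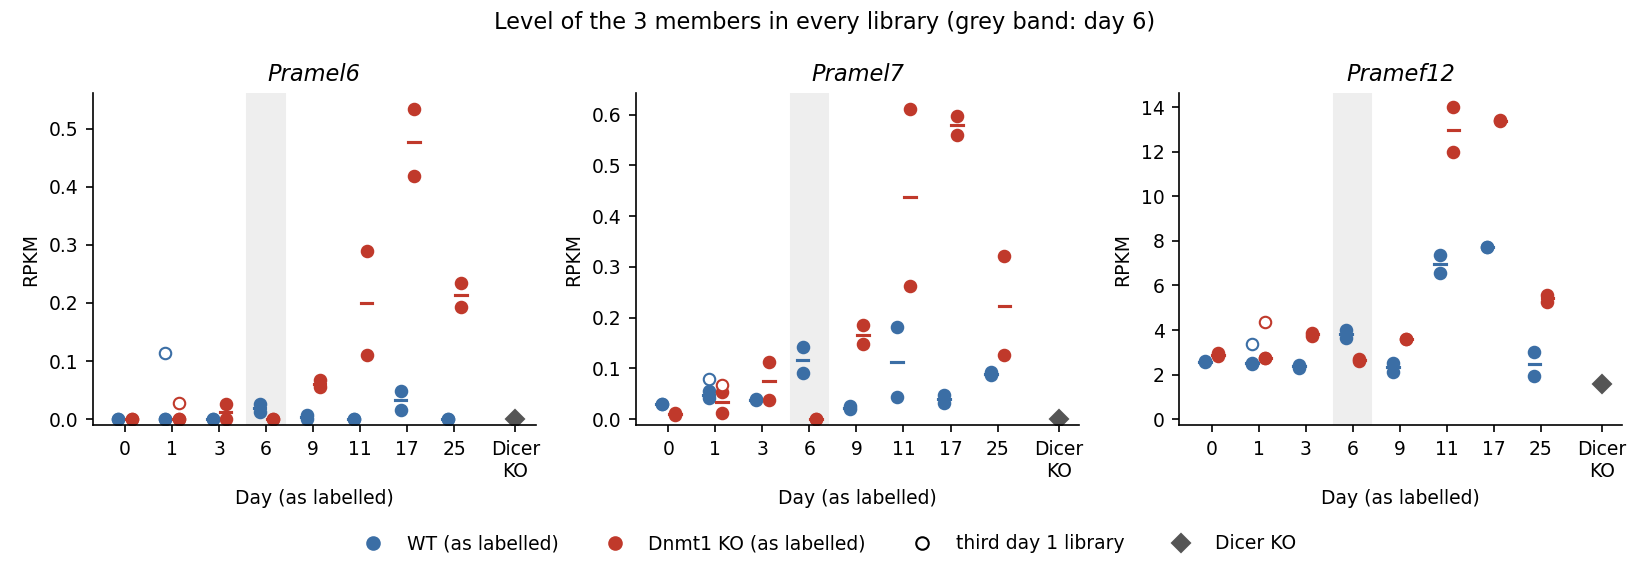
RPKM (linear axis from 0) of the 3 members against the labelled day (evenly spaced), 1 point per library, with a bar at the mean of the first and second replicates, WT in blue, KO in red, the third day 1 libraries as open circles and *Dicer* KO as a grey diamond. *Pramel6* stays at or near 0 in WT and reaches 0.534 RPKM in KO at day 17, *Pramel7* reaches 0.611 at day 11, *Pramef12* reaches 13.99, and at day 6 (grey band) the labelled order is turned round.

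The question put to these values was whether RNA of the members differed between *Dnmt1* KO and WT on each day. Differences were tested on log2(RPKM + 0.1) with limma (Benjamini-Hochberg adjusted p), a scale that understates changes of low genes. *Pramef12* was the only member above 1 RPKM in 2 libraries, and it was tested among the 11594 genes that passed this filter. *Pramel6* and *Pramel7* did not pass it and were tested in the same model among all 22720 genes above 0. The spread of a gene was 1 estimate shared over all groups, so SE and p do not measure the spread of a single day. For *Pramel6* this estimate includes groups without a read (WT and KO of days 0 and 1, WT of days 3, 11 and 25). Such groups narrow the spread applied to its KO libraries of later days. No gene passed at day 0 (0% in both fits, with 265 and 460 genes at an unadjusted p under 0.05), and at day 1 0.285% of the filtered and 0.15% of the unfiltered genes passed. No member passed at either day.

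At day 3 *Pramef12* was 0.67 higher in the KO in log2 units (SE 0.12, limma adjusted p 0.00102), a 1.59-fold change, where 11.9% of the filtered genes passed. *Pramel6* and *Pramel7* differed by 0.17 (SE 0.19) and 0.31 (SE 0.31) and did not pass (limma adjusted p 0.813 and 0.771, 6.21% of the unfiltered genes passed).

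At day 9 all 3 members were higher in the KO. In log2 units *Pramef12* differed by 0.62 (SE 0.12, limma adjusted p 0.000753) where 28% of filtered genes passed. *Pramel6* differed by 0.64 (SE 0.19, limma adjusted p 0.0228) and *Pramel7* by 1.11 (SE 0.31, limma adjusted p 0.0197), with 16% of unfiltered genes passing. By reads, *Pramel6* was 12.2 times as high (95% counting interval 1.73 to 529) and *Pramel7* 6.82 times (2.6 to 22.6). The calls of *Pramel6* and *Pramel7* were lost without any 1 of the 4 day 9 libraries (limma adjusted p between 0.059 and 0.151), and that of *Pramel7* was also lost with a replicate block (limma adjusted p 0.0757).

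At day 11 the differences were 0.89 (SE 0.12, limma adjusted p 1.22e-05) for *Pramef12*, 1.52 (SE 0.19, limma adjusted p 6.01e-06) for *Pramel6* and 1.34 (SE 0.31, limma adjusted p 0.00393) for *Pramel7*, where 35.8% of filtered and 24.7% of unfiltered genes passed. *Pramel6* was at least 4.91-fold higher in the KO, against a floor of 3 reads per WT library, and *Pramel7* was 3.71 times as high by reads (95% counting interval 2.15 to 6.68). The call of *Pramel7* was lost without the first WT or the first KO library of day 11, when its difference was 0.85 (limma adjusted p 0.109 and 0.0711). With only the day 11 libraries in the fit, the calls of *Pramel6* and *Pramel7* were lost (limma adjusted p 0.259 and 0.441).

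In the KO, the mean RPKM of each member was highest at day 17. *Pramel6* and *Pramel7* differed by 2.13 (SE 0.19, limma adjusted p 4.05e-08) and 2.29 (SE 0.31, limma adjusted p 1.42e-05), and by reads they were 14.7 times as high each (95% counting intervals 5.47 to 55.8 and 6.03 to 46.5). *Pramef12* differed by 0.79 (SE 0.12, limma adjusted p 2.96e-05), a 1.72-fold change. With only the day 17 libraries in the fit, the call of *Pramel6* was lost (limma adjusted p 0.0534). On this day 41% of filtered and 29.5% of unfiltered genes passed.

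At day 25 *Pramef12* was higher in the KO than in WT by 1.13 (SE 0.12, limma adjusted p 1.7e-07), a 2.19-fold change. *Pramel6* was higher by 1.65 (SE 0.19, limma adjusted p 9.51e-07), at least 4.24-fold by the floor. *Pramel7* differed by 0.70 (SE 0.31) and did not pass (limma adjusted p 0.0796), with 2.50 times the reads (95% counting interval 1.21 to 5.54), and its difference was 1.15 without the first KO library (limma adjusted p 0.0158) and 0.25 without the second (limma adjusted p 0.665). By this day 66% of filtered and 44.6% of unfiltered genes passed. The median log2 difference of all filtered genes was 0.13, and with each library centred on its median *Pramef12* differed by 1.14 and *Pramel6* by 1.65. On other days centring made the difference of *Pramef12* smaller. It was 0.77 at day 11 (from 0.89) and 0.60 at day 17 (from 0.79). Over days 3, 9, 11, 17 and 25 it was 0.74 (from 0.82).

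**Figure D2:**
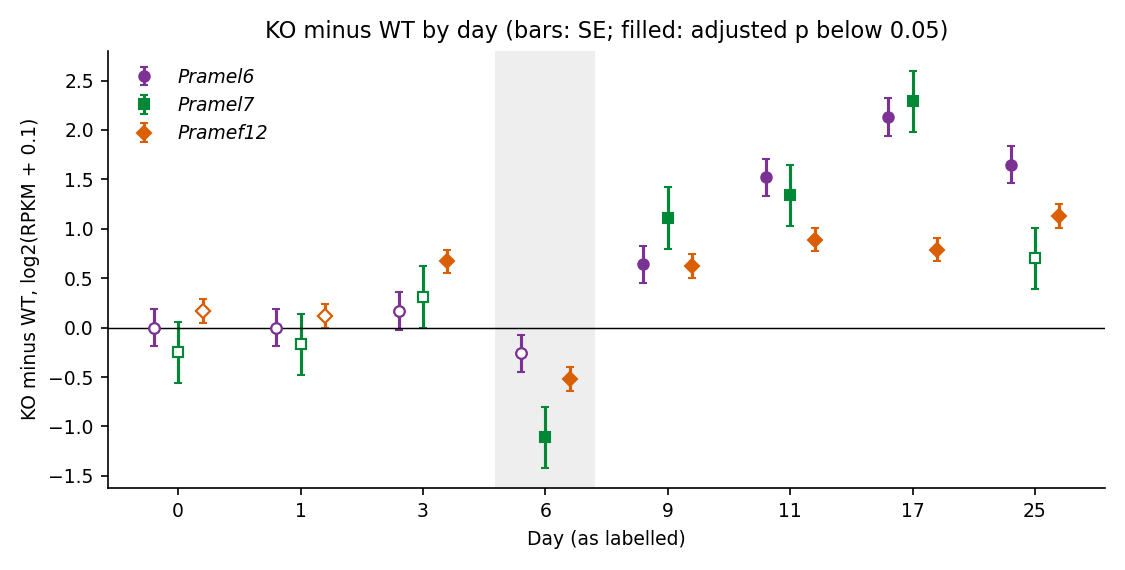
KO minus WT on the log2(RPKM + 0.1) scale against the labelled day for *Pramel6* (circles), *Pramel7* (squares) and *Pramef12* (diamonds), with SE as bars and filled symbols where the limma adjusted p was below 0.05. All 3 members lie above 0 from day 3 on except at day 6 (grey band), *Pramel6* and *Pramel7* are highest at day 17 (2.13 and 2.29) and *Pramef12* at day 25 (1.13).

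Averaged over days 3, 9, 11, 17 and 25, KO exceeded WT by 1.22 (SE 0.08) for *Pramel6*, 1.15 (SE 0.14) for *Pramel7* and 0.82 (SE 0.06) for *Pramef12*. An exact 2-sided permutation test of the genotype labels within days gave p = 0.000772 for *Pramel6*, p = 0.000772 for *Pramel7* and p = 0.000257 for *Pramef12*, the last being the smallest its 7776 relabellings can give. In limma all 3 passed, where 58.5% of filtered and 41.6% of unfiltered genes did. Fibroblast markers, which feeder cells would bring, moved with genotype on the early days. Their 10 genes summed to 11.6 RPKM in both day 3 KO libraries against 6.33 and 7.36 in WT, and to 15.3 and 17 against 8.39 and 9.70 at day 9, and none of the 10 was at 0 in all libraries of these groups. At days 11, 17 and 25 the sum lay between 1.75 and 4.05 RPKM in both genotypes. *Postn* and *Lum* were at 0 in WT of days 11 and 17, *Lum* in KO of day 11 and *Dcn* in WT of day 25. Of the 6 tested fibroblast markers, 3 were called higher in the KO and 1 lower at day 11. These counts were 1 and 0 at day 17, and 1 and 2 at day 25. On these days 35.8%, 41% and 66% of filtered genes passed in either direction. In the unfiltered fit over the 5 days, 7 of the 10 were higher and 0 lower. There 28.5% of genes were higher and 13.1% lower. The 6 trophoblast markers summed to between 3.42 and 6.13 RPKM in KO of days 11 and 17 against 1.77 to 2.01 in WT. At day 25 they summed to between 1.68 and 1.93 RPKM in KO against 1.79 to 2.24 in WT. The 7 primitive endoderm markers summed to 18.6 and 19.4 RPKM in KO of day 9 against 10.4 and 12.2 in WT. Of their 4 tested markers 3 were called higher, where 28% of filtered genes passed in either direction. At day 25 their sum was 8.89 to 9.66 RPKM in KO against 13.5 to 14.8 in WT. On that day 3 of the 4 were called lower, where 66% of filtered genes passed in either direction. Of the 7 ESC markers, 2 were higher and 5 lower in the KO over the 5 days (median -0.11 against 0.06 for all filtered genes, of which 37.8% were higher and 20.7% lower). Their sum was 638.3 and 662.5 RPKM in KO of day 9 against 701.2 and 723.3 in WT. At day 25 it was 1267 and 1279 RPKM in KO against 945.2 and 977.3 in WT. The part of all these markers in the result was not tested. In bulk RNA, more cells that express a gene and more RNA per cell cannot be told apart.

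The libraries labelled WT at day 6 carried the higher levels. *Pramel6* had 0.0133 and 0.0266 RPKM there (1 and 4 reads) and 0 in both libraries labelled KO. *Pramel7* had 0.0906 and 0.143 RPKM (7 and 22 reads) against 0 and 0. *Pramef12* had 3.64 and 4.02 RPKM against 2.59 and 2.68. As labelled, the differences were -0.26 (SE 0.19, limma adjusted p 0.438) for *Pramel6*, -1.11 (SE 0.31, limma adjusted p 0.0209) for *Pramel7* and -0.52 (SE 0.12, limma adjusted p 0.00346) for *Pramef12*, where 28% of filtered and 15.3% of unfiltered genes passed. The call of *Pramel7* was lost without the second library labelled WT or either library labelled KO (limma adjusted p between 0.0941 and 0.166) and with a replicate block (limma adjusted p 0.0784).

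The third day 1 pair came from the other set of exon share and was left out of the fit. *Pramel6* had 0.114 RPKM (7 reads) in its WT library, the highest WT level of the series, and 0.0277 RPKM (2 reads) in its KO library. *Pramel7* had 0.0798 and 0.0675 RPKM in WT and KO, and *Pramef12* 3.39 and 4.37. Within this pair only *Pramef12* was higher in the KO. With the pair in the fit, the calls at days 3 and 9 were lost for *Pramef12* (limma adjusted p 0.211 and 0.129), and that at day 9 for *Pramel6* and *Pramel7* (limma adjusted p 0.333 and 0.0612), and they were kept when a term for the exon share was added.

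The size of the KO effect was compared between days by interaction terms. For *Pramel6* it was larger by 1.36 (SE 0.17, limma adjusted p 2.69e-05) at days 11, 17 and 25 than at days 3 and 9, and larger by 1.01 (SE 0.26, limma adjusted p 0.00662) at day 25 than at day 9, a call lost with the third day 1 pair (limma adjusted p 0.141) and with voom (0.0697). For *Pramef12* these differences were 0.29 (SE 0.11, limma adjusted p 0.0767) and 0.51 (SE 0.18, limma adjusted p 0.0209), and the second was lost without the first WT library of day 9, the second WT library of day 25 or the first KO library of day 25 (0.39, 0.20 and 0.47; limma adjusted p between 0.0648 and 0.212). For *Pramel7* they were 0.73 (SE 0.29, limma adjusted p 0.112) and -0.41 (SE 0.45, limma adjusted p 0.546). In the first comparison 19.9% of filtered and 11.6% of unfiltered genes passed, and in the second 49.1% and 29.2%. The later days all belong to the set of high exon share, so day and set cannot be told apart here. By reads, *Pramel6* was 12.2 times as high in the KO at day 9 and 14.7 times at day 17. Its day 9 levels lay below the added 0.1 RPKM, where this scale understates a change. A larger fold of *Pramel6* on the later days is thus not shown.

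Within a genotype, WT cells showed no call for any member between days 0 and 9 (*Pramef12* -0.15, *Pramel7* -0.08, *Pramel6* 0.05), where 16.4% of filtered and 6.95% of unfiltered genes passed. KO cells gained 0.68 in *Pramel6* (SE 0.19, limma adjusted p 0.0133) and 1.28 in *Pramel7* (SE 0.31, limma adjusted p 0.00702) over this span, while *Pramef12* differed by 0.31 (SE 0.12, limma adjusted p 0.0655), against 31.7% and 17.5% of genes. The *Pramel6* call was lost without either day 0 KO library or the first day 9 KO library (limma adjusted p between 0.0664 and 0.0947), and that of *Pramel7* without the first day 9 KO library (1.18, limma adjusted p 0.0652). Across days 11 to 25 *Pramef12* fell by 1.49 in WT (SE 0.12, limma adjusted p 1.62e-09) and by 1.24 in KO (SE 0.12, limma adjusted p 6.53e-08), where 68.6% and 53.8% of filtered genes passed. *Pramel6* and *Pramel7* did not pass in WT (both WT groups of *Pramel6* at 0, *Pramel7* -0.08) or in KO (0.13 and -0.72, limma adjusted p 0.651 and 0.0806), where 46.8% and 37.5% of unfiltered genes passed. Without the first KO library of day 11, *Pramel6* differed by 0.57 and passed (limma adjusted p 0.00301), and without the second KO library of day 11 or of day 25 *Pramel7* passed with -1.20 and -1.17 (limma adjusted p 0.0128 and 0.0187).

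In the *Dicer* KO library the members were low. *Pramel6* and *Pramel7* had no read, where 3 reads would have been 0.0558 and 0.0545 RPKM. *Pramel7* had at least 1 read in each of the 17 WT libraries, with between 0.0314 and 0.183 RPKM at days 11, 17 and 25, so the floor lies within the WT range. *Pramef12* had 1.57 RPKM (104 reads), below all 17 WT libraries (1.93 to 7.74 RPKM), and 1.64 lower on the log2 scale than the mean of WT of days 11, 17 and 25. Among filtered genes 9.06% were at least 1 log2 unit lower and 14.4% at least 1 log2 unit higher. Against WT of day 25 alone, *Pramef12* was 0.59 lower. The 10 fibroblast markers summed to 41.0 RPKM in this library, above every other library, and their part in the result was not tested. *Dicer1* RNA itself had 4.01 RPKM against 3.90 to 8.57 RPKM in WT of these days, and since the position of the edit was not used here, this level does not check the knockout. With 1 library there is no replicate check.

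Among the 38 rows of the Prame family, 8 had no read in any library of the fit, 22 never reached 0.1 RPKM and 4 passed the filter of 1 RPKM. Over days 3, 9, 11, 17 and 25, 16 of the 30 rows above 0 were higher in the KO, 1 was lower and 13 did not pass, where 28.5% of all unfiltered genes were higher and 13.1% lower. The largest differences were at *Gm13109* (2.41, SE 0.13) and *Gm12794* (2.22, SE 0.07), both on chromosome 4. *Gm13109* lies in the cluster that holds *Pramef12*, and *Gm12794*, known from the 2-cell embryo, lies apart from it between 101613012 and 101615788. *Gm13119*, the second gene from *Pramef12*, differed by 1.48 (SE 0.08). *Pramef8*, also on chromosome 4, had between 1.48 and 6.08 RPKM in WT and did not pass (-0.06, SE 0.04, limma adjusted p 0.206), and *Pramel1* was lower in the KO by 0.57 (SE 0.13, limma adjusted p 0.00182). How alike the other family rows are to each other was not measured here, and reads shared among them could be split between rows.

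The levels of the family at the last days are given side by side. *Gm12794* had a mean of 1.299 RPKM in KO at day 17 and 0.0569 at day 25, and *Gm13109* had 1.58 and 0.0697. *Pramel6* had 0.476 and 0.214 RPKM and *Pramel7* 0.579 and 0.224. Between days 11 and 25, 9 of the 30 family rows fell in the KO and 2 rose, where 37.5% of unfiltered genes passed in either direction. In the *Dicer* KO library *Pramef8* had 13.5 RPKM, above all 17 WT libraries.

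**Figure D3:**
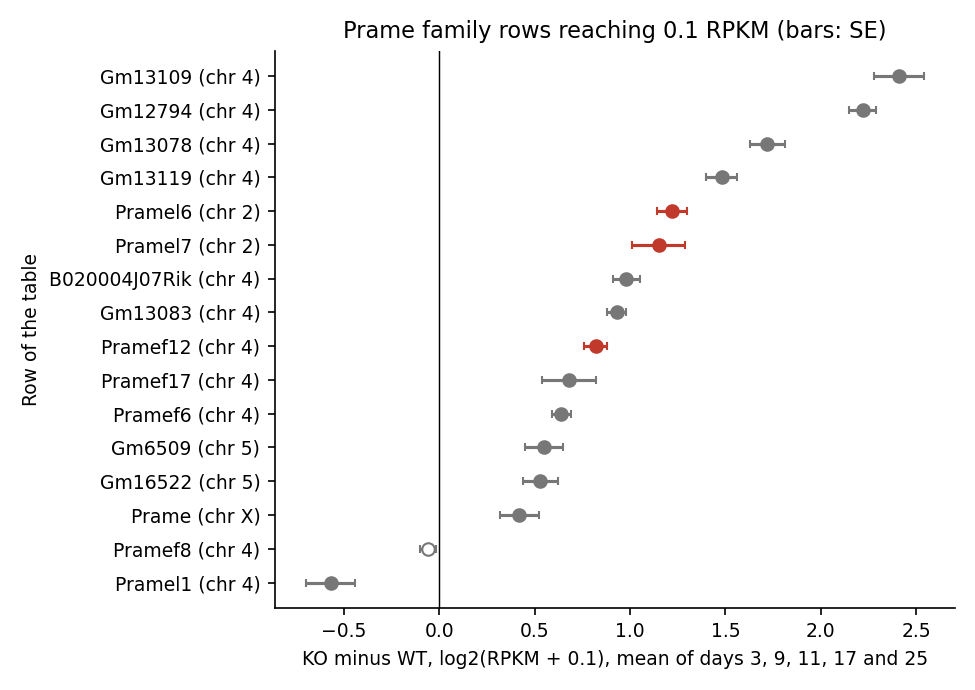
KO minus WT on the log2(RPKM + 0.1) scale, mean of days 3, 9, 11, 17 and 25, for the 16 Prame family rows that reached 0.1 RPKM, with SE as bars, filled symbols where the limma adjusted p was below 0.05 and the 3 members in red. *Gm13109* (2.41) and *Gm12794* (2.22) are at the top, *Pramel6* (1.22), *Pramel7* (1.15) and *Pramef12* (0.82) lie in the middle, and *Pramef8* (-0.06) and *Pramel1* (-0.57) are at the bottom.

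Copies elsewhere in the genome could also take or give reads of the members. No other locus matched a member transcript at 95% identity over 100 bases. The closest was a stretch on chromosome 10 that matched 98.4% of the *Pramel7* transcript at 90.9% identity, and the best match of *Pramel6* had 85.4% identity. *Pramel6* and *Pramel7* aligned to each other over 203 bases with 69.0% identity. The strand setting of the authors' counting is not given in the sources used here, so reads of *Pramef12* and of *D530049N12Rik* inside it cannot be told apart, although *D530049N12Rik* itself did not exceed 0.301 RPKM.

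Across the 32 libraries of the fit, each centred on its median, *Pramel6* and *Pramel7* had a Pearson r of 0.806, *Pramel6* and *Pramef12* of 0.581, and *Pramel7* and *Pramef12* of 0.551. Over the 12 libraries of days 11, 17 and 25 these were 0.845, 0.621 and 0.568. Among 9520 candidate genes the pattern of *Pramel6* was most like *H19* (0.884), *Rian*, *Ckb*, *Eif2s3y* and *Xbp1*. That of *Pramel7* was most like *Rtkn* (0.853), *Zbtb7b*, *H19*, *Rpl39l* and *Eps8*, and that of *Pramef12* most like *Trim13* (0.918), *Ypel5*, *Dock11*, *Gm13227* and *Trap1a*. These libraries share genotype, day and exon share, and the values are descriptions. The genes next to *Pramel6* and *Pramel7* were near 0, with *Olfr1126* and *Olfr1124* at 0 in all libraries of the fit and *Olfr153* and *Olfr1128* reaching 0.283 and 0.0744 RPKM.

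*Uhrf1*, whose protein Pramel7 sends for degradation, did not fall at the RNA level. At day 17 it had between 33.4 and 35.5 RPKM in KO and between 28.0 and 30.2 in WT, and at day 25 between 44.8 and 51.4 against 37.4 to 38.7. Over days 3, 9, 11, 17 and 25 it was 0.26 higher in the KO (SE 0.03, limma adjusted p 1.13e-06). Protein was not measured in these libraries. Of the 10 listed genes of UHRF1 and DNA methylation, 2 were higher and 5 lower in the KO over these days, with a median of -0.06 against 0.06 for all filtered genes, of which 37.8% were higher and 20.7% lower. The de novo methyltransferases *Dnmt3a* (-0.65) and *Dnmt3b* (-0.37) fell and their cofactor *Dnmt3l* rose (0.31), while *Usp7*, which stabilises Uhrf1, differed by -0.08 and passed.

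**Figure D4:**
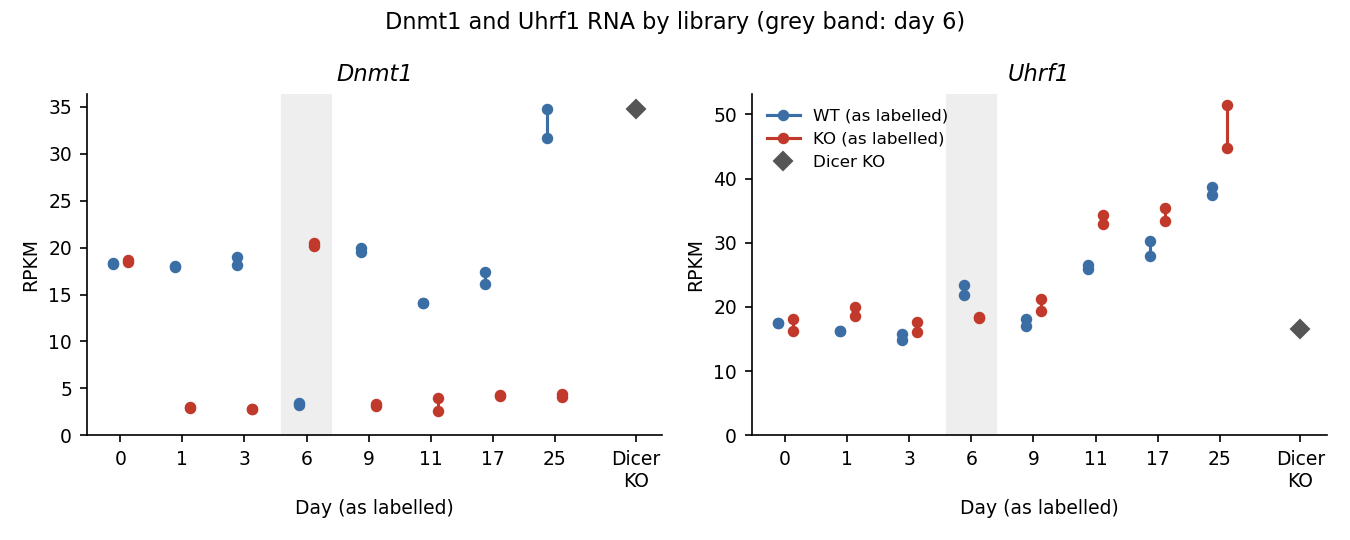
RPKM (axis from 0) of *Dnmt1* and *Uhrf1* against the labelled day, with the 2 libraries of each group joined by a line, WT in blue, KO in red and *Dicer* KO as a diamond; the third day 1 pair is left out. *Dnmt1* lies between 2.58 and 4.40 RPKM in KO from day 3 on except at day 6, where the labelled groups change places, and *Uhrf1* reaches 51.4 RPKM in KO at day 25 against 38.7 in WT.

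Of the 10 measured genes of the CUL2 ligase, 4 were higher in the KO, 1 was lower and 5 did not pass (median 0.05), a count of higher genes near the 37.8% of all filtered genes. *Cul2* itself differed by -0.02 and *Rbx1*, its RING partner, by 0.07, and neither passed. *Tceb1* (elongin C, 0.23), *Vhl* (another substrate receptor, 0.37), *Nedd8* (0.26) and *Ube2m* (0.29), which activate cullins, rose. Of the 12 genes of the LIF and STAT3 pathway, 4 rose, 4 fell and 4 did not pass (median 0.03), against 37.8% higher and 20.7% lower among all filtered genes. *Stat3* (0.10) and its feedback inhibitor *Socs3* (0.08) did not pass, the ligand gene *Lif* rose by 0.67 and the receptor subunit gene *Il6st* fell by 0.17.

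Naive and primed pluripotency genes were read beside the members. Of the 14 naive genes 8 rose, 2 fell and 4 did not pass over days 3, 9, 11, 17 and 25 (median 0.13), against 37.8% higher and 20.7% lower among all filtered genes. *Fbxo15* (1.21), *Nanog* (0.81), *Prdm14* (0.79) and *Dppa3* (0.43) were among those that rose, and *Klf5* (-0.43) fell. At day 25 9 naive genes were higher in the KO and 1 was lower (median 0.48), where 39.8% of filtered genes were higher. Of the 10 primed genes in the unfiltered fit 5 fell, 1 rose and 4 did not pass over the 5 days (median -0.34), where 13.1% of unfiltered genes fell and 28.5% rose. *Otx2* was among those that fell (-1.31), and *Lefty2* rose (0.97). Between days 11 and 25 in WT, when *Pramef12* fell, 9 of the 14 naive genes fell and none rose (median -0.82), where 33.6% of filtered genes fell. *Pramef12* also fell in the KO over this span. There 6 naive genes fell, 2 rose and 6 did not pass (median -0.22), where 53.8% of filtered genes passed in either direction.

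Germline genes held down by promoter methylation and 2-cell genes were counted in the unfiltered fit, because some pass the filter of 1 RPKM through the KO libraries alone. Of the 16 germline genes 11 rose, 4 fell and 1 did not pass (median 1.06 against 0.04 for all unfiltered genes), where 28.5% of these genes rose and 13.1% fell. *Fkbp6* had between 0 and 0.0889 RPKM in the 10 WT libraries of days 3, 9, 11, 17 and 25 and between 0.441 and 6.89 in KO, and *Dazl* between 0.404 and 3.40 in WT and between 2.54 and 12.6 in KO. *Sycp3* fell, from between 2.62 and 8.66 RPKM in WT to between 0.702 and 2.30 in KO. All 17 measured 2-cell genes rose against the same background (median 1.51), and *Zscan4d* had between 0 and 0.0544 RPKM in WT and between 0.447 and 3.55 in KO. *Zscan4d* belongs to a multigene family, so its share of reads is uncertain. The list includes the Prame family rows *Gm12794* and *Gm13119*.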

How the data were processed

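RNA-seq of mouse ESCs was read from 1 deposited table of linear RPKM values, which the authors made with Trim Galore 0.3.5, TopHat2 2.0.11 (NCBIM37, mapping quality under 20 discarded) and SeqMonk; the authors tested differences with DESeq2, which was not used here. Strand use in counting is not given in the sources used here. Low values were whole multiples of 1 read in 99.39% to 99.71% of cases (tolerance 0.1 read, under 20 reads), which gave reads per gene and library depth; intervals and floors (3 reads) cover counting error only.

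Groups followed the labels. limma 3.58.1 (R 4.3.3) was fitted on log2(RPKM + 0.1) over 32 libraries, without the third day 1 pair and *Dicer* KO, with Benjamini-Hochberg adjustment at 0.05. Genes above 1 RPKM in 2 libraries were tested (11594). *Pramel6* and *Pramel7* fell below this filter, so their values come from the unfiltered fit of 22720 genes, a choice made after seeing their levels. The filtered fit was tested on simulated data with changes only in genes above 1 RPKM, so the fit of *Pramel6* and *Pramel7* was not covered. Members and lists were chosen with earlier results of these data known. Named genes were the members, checks, listed genes, family rows, neighbours and the 5 genes most like each member by Pearson r.

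Libraries were not paired by replicate number in the main fit. Deviations of same-numbered libraries correlated between -0.154 (day 17) and 0.260 (day 11), and whether they were paired was not tested. Alternatives were pseudocounts 1 and 0.01, other filters, median centring, the third day 1 pair, a replicate block, only the groups compared, voom on the recovered reads, and each library left out. Promoters came from RefSeq (GRCm38.p6), and copies were searched with blastn 2.17.0.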

Additional observations from a re-analysis of the deposited data

Results flagged for a closer look

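The KO effect on *Pramel6* differed between days by an interaction term: it was larger by 1.36 on the log2 scale at days 11, 17 and 25 than at days 3 and 9 (limma adjusted p 2.69e-05). Between day 25 and day 9 it was larger by 1.01 (limma adjusted p 0.00662), which was lost with the third day 1 pair (0.141) and with voom (0.0697). The KO effect on *Pramef12* was larger by 0.51 at day 25 than at day 9 (limma adjusted p 0.0209), which was lost with the third day 1 pair (0.376), with only the groups compared (0.0903) and without any of 3 single libraries (0.0648 to 0.212). The 2 spans also differ in the share of reads in exons (at most 22.4% against at least 44.8%), and span and share cannot be told apart. By reads, *Pramel6* was 12.2 times as high in the KO at day 9 and 14.7 times at day 17. The log2 scale understates changes at its low day 9 levels, so a larger fold on the later days is not shown.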

How the results depend on the processing

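Of 435 values under other settings, 402 were counted as unchanged, 23 lost and 8 gained a call, 2 moved and 0 turned. Leaving out 1 library lost 20 and gained 9 of 288. A change of sign was counted as a turn only where a value passed the threshold. Values without a call could change sign and still count as unchanged. *Pramel6* in WT day 9 against day 0, for example, went from 0.05 to -0.01 with median centring. *Dicer* KO values had no test and were counted by size alone. All adjusted p are limma's, and the cause was not tested.

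With pseudocount 1, *Pramel6* lost day 9 (0.08, adjusted p 0.28) and KO day 9 against day 0 (0.09, 0.234), and *Pramel7* lost day 6 (-0.16, 0.253), day 9 (0.19, 0.145) and KO day 9 against day 0 (0.21, 0.097). It gained *Pramel7* late against early effect (0.26, 0.0229), *Pramel7* KO day 25 against day 11 (-0.23, 0.0319) and *Pramef12* late against early effect (0.31, 0.0127), and moved *Pramel7* in *Dicer* KO to -0.11. Pseudocount 0.01 gained *Pramel6* day 6 (-1.55, 0.0401).

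The third day 1 pair lost *Pramel6* day 9 (0.64, 0.333), its day 25 against day 9 effect (1.01, 0.141) and KO day 9 against day 0 (0.68, 0.264), *Pramel7* day 6 (-1.11, 0.0684) and day 9 (1.11, 0.0612), and *Pramef12* days 3, 6 and 9 (0.67, 0.211; -0.52, 0.284; 0.62, 0.129) and day 25 against day 9 effect (0.51, 0.376). With only the groups compared, *Pramel6* lost days 9, 11 and 17 (0.64, 0.0525; 1.52, 0.259; 2.13, 0.0534), *Pramel7* days 6 and 11 (-1.11, 0.0752; 1.34, 0.441) and *Pramef12* the day 25 against day 9 effect (0.51, 0.0903), while *Pramef12* KO day 9 against day 0 was gained (0.31, 0.00687). voom lost *Pramel6* day 25 against day 9 effect (1.97, 0.0697) and gained *Pramef12* KO day 9 against day 0 (0.32, 0.0391). *Dicer* KO against WT of day 25 alone moved *Pramef12* to -0.59.

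The replicate block lost *Pramel7* day 6 (-1.11, 0.0784) and day 9 (1.11, 0.0757), gained *Pramef12* late against early effect (0.29, 0.0452) and KO day 9 against day 0 (0.31, 0.0362), and changed no other call of a member; day 1 calls over all genes went from 33 to 20 filtered and from 34 to 13 unfiltered, and to 21 unfiltered with numbers crossed at days 1 and 17 (chosen after seeing the data).

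Without 1 library the ranges were 0.58 to 0.69 for *Pramel6* day 9, 0.63 to 0.74 for its KO day 9 against day 0 and -0.32 to 0.57 for its KO day 25 against day 11. For *Pramel7* they were -1.28 to -0.93 (day 6), 1.01 to 1.21 (day 9), 0.85 to 1.83 (day 11), 0.25 to 1.15 (day 25), 0.57 to 0.89 (late against early effect), 1.18 to 1.38 (KO day 9 against day 0) and -1.20 to -0.23 (KO day 25 against day 11). For *Pramef12* they were 0.19 to 0.39 (late against early effect, called without the second KO library of day 11 or the first WT library of day 25) and 0.20 to 0.82 (day 25 against day 9 effect).

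Counts of genes called (filtered, then unfiltered) fell with the third day 1 pair: 33 to 1 and 34 to 1 at day 1, 1383 to 77 and 1411 to 150 at day 3, 3249 to 330 and 3485 to 547 at day 6, 3245 to 383 and 3632 to 639 at day 9, 4153 to 653 and 5602 to 1628 at day 11, 4755 to 1215 and 6701 to 2634 at day 17, 7650 to 2430 and 10122 to 4057 at day 25, 6778 to 2194 and 9444 to 4355 over the 5 days, 2313 to 143 and 2625 to 439 for the late against early effect, 5693 to 842 and 6635 to 1376 for day 25 against day 9, 1897 to 11 and 1579 to 7 for WT and 3675 to 431 and 3982 to 719 for KO day 9 against day 0, and 7957 to 3332 and 10627 to 5108 for WT and 6233 to 1245 and 8526 to 2712 for KO day 25 against day 11. With a term for exon share, which marks only the third day 1 pair, they moved by over 1.5 times only at day 1 (to 17 and 4). With only the groups compared, filtered counts became 8 (day 1), 2163 (day 3), 313 (day 11), 2885 (day 17), 1486 (late against early) and 1634 (KO day 25 against day 11), and unfiltered counts 9 (day 0, from 0), 10 (day 3), 1023 (day 6), 1178 (day 9), 143 (day 11), 1138 (day 17), 5656 (day 25), 1605 (late against early), 20 (WT) and 2275 (KO day 9 against day 0), and 6312 (WT) and 193 (KO day 25 against day 11). Leaving out 1 library moved counts to as few as 10 and 22 at day 1, 655 and 617 at day 3, 1950 and 2082 at day 6, 1857 and 1866 at day 9, 2711 at day 11 (filtered), 390 and 263 for WT and 2077 and 2187 for KO day 9 against day 0, to as many as 8 at day 0 (unfiltered), and to 4376 and 5195 for the late against early effect without the second KO library of day 11. *Pramel6* had no read in 11 of 14 WT libraries outside day 6, which is at the limit of this depth.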
